A study of Rattus norvegicus with 67 samples.

Results

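The comparison described here is that of sperm from atrazine and control lineage F3 generation male rats in which no disease was recorded. Its members were chosen by the lineage and disease labels alone, which gave 28 of the 67 animals listed: 19 atrazine lineage animals and 9 control lineage animals. A further control lineage animal without disease, M1, has no counts. All were outbred Hsd:Sprague Dawley SD rats whose caudal epididymal sperm was taken at 1 year of age. The F0 founder females of the atrazine lineage received 25 mg/kg atrazine intraperitoneally on gestation days 8 to 14, and those of the control lineage received the vehicle dimethyl sulfoxide (DMSO). The F3 animals themselves were not treated. Each lineage descended from its own founder females, so ancestral exposure and founder genotype cannot be told apart in this comparison. The DNA bound by an antibody to histone H3 was sequenced by ChIP-Seq and counted in windows of 1000 bp of the Rnor_6.0 rat genome, 1 library per animal. The labels name a pan H3 antibody, whereas the methods text also mentions one for a trimethylated form, and it describes sperm pools.

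In spermatids most histones are replaced by protamines, small basic proteins that pack DNA tightly, and a minor share of nucleosomes remains in the mature sperm. Where histones remain, the sperm carries chromatin that can be passed to the embryo, and a change of these sites is termed differential histone retention. H3 is a core histone of every nucleosome, so the read count of a window follows the amount of H3-bound DNA recovered there. It also follows the number of genome copies of that sequence, since no input library is described for these animals. The X chromosome windows had 0.471 to 0.662 and the Y chromosome windows 0.643 to 0.855 of the mean autosomal level in the 28 animals. Both chromosomes are also below the autosomes in other cells of a male, so these levels do not mark sperm, and the cell source was not checked with counts.

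Some libraries stood apart before any comparison was made. Total counts were between 27658385 and 163344139 in the control lineage and between 22211333 and 239635003 in the atrazine lineage, with medians of 63098933 and 60554457. M2 (control) and M68 (atrazine) were the deepest libraries. The highest count of any window was between 1677 and 2065 in all 66 libraries although the totals differed 12-fold. At the 5026 windows above 5 times the median level, M68 and M2 had the lowest mean levels of the 66 animals, 2.88 and 2.94 RPM (counts per 1000000 of the scaled library total), and M67, a shallow library, had 5.2. The pathology records of the controls M2, M12 and M18 have blanks, most of them for M2. On the first principal component, with 10.5% of the variance, the atrazine lineage spanned -103.67 (M22) to 57.27 (M67) and the control lineage lay inside that range, from -48.37 to 30.76. On the second, with 8.61%, M67, the smallest of the 28 libraries, was at -132.62 and the next animal at -24.94.

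The labels also contradict each other. A treatment tag reads DMSO for 6 of the 19 atrazine lineage animals (M59, M62, M65, M67, M68 and M69), and Atrazine for the other 13 and for all 9 control lineage animals. Title and lineage label were followed, and the comparison was repeated without those 6 animals.

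Between the lineages, 391 of 2535134 windows differed with p below 0.0001 (0.0154%) in edgeR's quasi-likelihood test, of which 320 (0.0126%) were higher and 71 (0.0028%) were lower in the atrazine lineage. If p-values were uniform, 254 windows would pass. The adjusted p was below 0.05 for 35 windows, and 4.75% of all windows had p below 0.05. Windows that passed are referred to as called. Called windows extended over neighbours with p below 0.1 gave 256 differential histone retention regions (DHRs), 196 higher and 60 lower, with a median length of 3000 bp and a longest of 64000 bp. Of these, 72 were single windows and 36 held more than 1 called window.

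The counts moved with single animals. Without the control animal M2 222 windows were called, 171 higher and 51 lower, fewer than the 252 of uniform p-values, and 2 had an adjusted p below 0.05. Of the 391 windows, 185 were called again without M2. When animals were left out in turn with the scaling and dispersion trend kept, the number of windows with an adjusted p below 0.05 was also 2 without M9, 5 without M12 and 8 without M16, all controls, and rose to 85 without M68 and to 109 without M22. The number called rose to 579 without M8, a control. Leaving out M2 and M68 together left 252 windows, against 245 if p were uniform. Without the 6 DMSO-tagged animals, 818 of 2512450 windows were called (0.0326%), 695 higher and 123 lower, of which 299 were among the 391. With M2 left out there as well, 389 windows were called, against 248, and those with an adjusted p below 0.05 fell from 76 to 21. In the 19 against 9 animals, DESeq2 called 350 windows with 1 adjusted p below 0.05, and the robust form of the edgeR fit called 239 with no adjusted p below 0.05, while 119671 of its windows had an unadjusted p below 0.05.

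**Figure D1:**
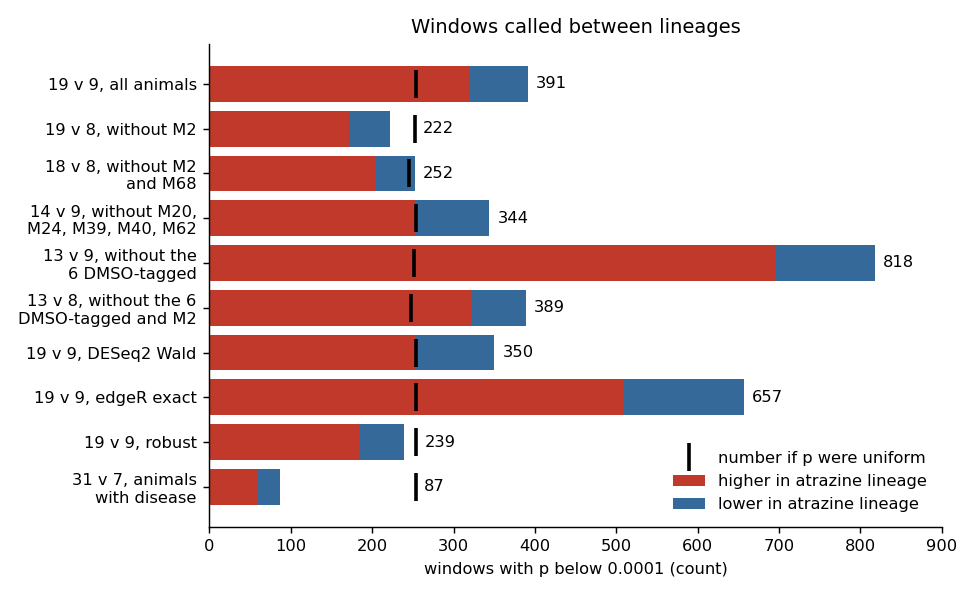
Windows with p below 0.0001 (horizontal axis, count) in the comparison and its repeats, as bars of windows higher (red) and lower (blue) in the atrazine lineage, with the number that uniform p-values would give as a black tick. The bar of 391 for 19 against 9 animals falls to 222 without M2, below its tick of 252, and the bar of 818 without the DMSO-tagged animals falls to 389.

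Differences at the called windows were moderate. The log2 fold change had a median of 0.79 among the 320 higher windows, with a highest value of 2.73, and of -0.73 among the 71 lower windows, with a lowest value of -2.18. At no called window did the lineages separate fully, which was also the case at all windows tested (0% in either direction). In the higher windows a median of 11 of the 19 atrazine lineage animals lay above the highest control, and in the lower windows a median of 12 lay below the lowest control. The windows were called for a difference in these same animals, so such counts are high by the choice of windows. The same holds for the stretches below, whose levels average called windows only. The count over all windows tested is not given here. The median level was 0.573 RPM at the higher windows, 0.387 RPM at the lower ones and 0.38 RPM over all windows tested. These levels are means over the animals of both lineages. The choice of windows by a difference in the atrazine lineage therefore raises them at the higher windows and lowers them at the lower ones. Whether the called windows differ from the genome at large in the controls alone was not tested. Windows above 5 times the median level made up 10.5% of the called windows and 0.198% of all windows. An animal with 0 reads was found at 23.9% of the lower windows and 9.69% of the higher ones, against 3.12% of all windows tested.

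Called windows were spread over all autosomes and X, with more on some chromosomes than their share of windows would give. Chromosome 16 had 53, of which 52 were higher, where its share of windows gives 12.8. Chromosome 14 had 43 against 16.3, chromosome 1 had 60 against 39.8 and chromosome 20 had 17, all higher, against 8. Chromosome 4 had 4 against 26.4 and chromosome 11 had 1 against 13.1. There were 16 stretches of 1 Mb with at least 5 called windows each, which together held 168 of the 391 windows (43%), 164 of them higher.

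Of these stretches, 6 followed the same few animals. The longest run was chr16:64899001-64982000 with 38 called windows. Its mean level was 0.475 to 0.745 RPM in the 9 control animals with a median of 0.58. In the atrazine lineage it was 4.56 RPM in M24, 2.73 in M40, 2.27 in M39, 2.12 in M20 and 1.61 in the DMSO-tagged M62, while the other 14 animals lay between 0.525 and 0.909 with a median of 0.736. So 5 of 19 animals had 2.77 to 7.87 times the control median, and the rest were at most 1.57 times it. In the same 5 animals, in the same order, the level was highest in chr14:101449001-101995000 (11 called windows) and in chr7:10257001-10275000 (9 called windows). On chromosome 14 M24 had 5.69 RPM, M40 3.37, M39 2.76, M20 2.69 and M62 1.86, against a control range of 0.464 to 0.955. On chromosome 7 they had 4.75, 3.03, 2.35, 2.16 and 1.74 RPM, against 0.455 to 0.91.

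The smallest p of the whole comparison lay in the run on chromosome 16. At chr16:64933001-64934000 the level was 0.0725 to 0.512 RPM in the controls, with a median of 0.182, and 0.264 to 5.79 RPM in the atrazine lineage, with a median of 0.451, and 8 of 19 atrazine animals lay above every control. The log2 fold change was 2.25 ± 0.35 (SE, adjusted p = 0.00837, edgeR's quasi-likelihood test). Without M20, M24, M39, M40 and M62 it was 0.85 with p = 9.61e-05. The next DHR, at chr16:64975001-64985000, had the largest fold change of all (2.73 ± 0.49) and a median of 0.0858 RPM in the controls and 0.135 RPM in the atrazine lineage, with a highest animal of 4.01 RPM.

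A further 3 stretches had far higher coverage and a similar order of animals. They were chr14:46528001-46671000 (15 called windows), chr6:31051001-31065000 (11) and chr1:11924001-11930000 (6). Control medians were 4.25, 4.72 and 5.33 RPM, where the median window of the genome had 0.38 RPM. M24 had 16.5, 19.1 and 22.4 RPM in these stretches, and M40, M39, M20 and M62 again followed in that order. Unlike in the previous set, M22, M67 and M69 were raised as well, with 1.6 to 1.95 times the control medians. M2 was the lowest control in each of the 3, with 2.88, 3.17 and 3.53 RPM, and M68 was the lowest atrazine lineage animal, with 3.25, 3.61 and 3.96 RPM. These are the deepest libraries, and the part of depth in these differences was not tested.

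The same windows were high in some animals outside the comparison, in both lineages. At the chromosome 16 stretch, M26, M27, M29, M41, M33, M19 and M28 of the atrazine lineage animals with disease had 3.84, 2.86, 2.7, 2.61, 2.28, 2.08 and 1.66 RPM. The control lineage animal M17, which has multiple disease, had 1.68 RPM, and the other 6 control lineage animals with disease had at most 0.728. M17 also had 2.61 RPM at the chromosome 14 stretch at 101 Mb, where the atrazine animals with disease had a median of 0.898 and M26, M27, M41, M29, M33, M19 and M28 had 4.51, 3.42, 3.38, 3.18, 2.84, 2.53 and 2.04 RPM. Over the whole genome, M20, M24, M39, M40 and M62 were the 5 highest of the 28 animals at 205 windows (0.00809%), of which 84 were called, which is 21.5% of all called windows. Of these 205 windows, 57 lay in the chromosome 16 stretch and 34 at chr5:77651001-77698000, and 2 of these 34 were called. With these 5 animals left out, 344 windows were called, 253 higher and 91 lower, of which 173 were among the 391, and 12 had an adjusted p below 0.05.

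**Figure D2:**
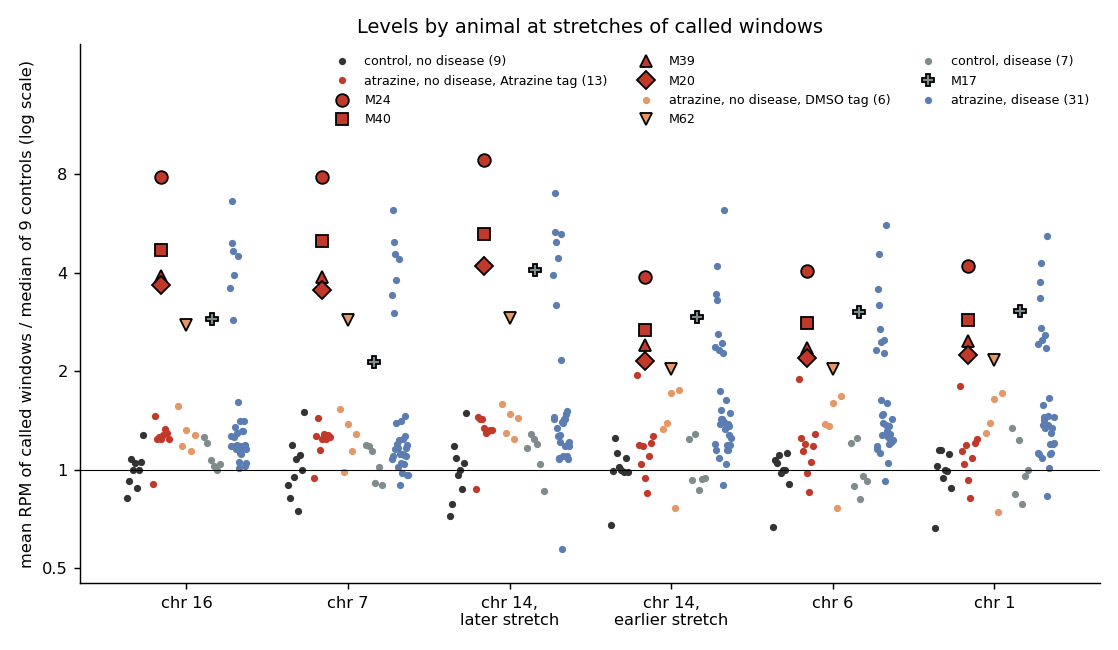
Mean RPM of the called windows in 6 stretches, divided by the median of the 9 control animals (vertical axis, log scale), for each of the 66 animals by group (colour), with M24, M40, M39, M20, M62 and M17 as larger symbols. M24 sits highest among the 28 animals without disease in every stretch, at 7.87 times the control median on chromosome 16, while most other animals lie close to 1 and M17 of the control lineage lies with the raised animals.

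Most of the 19 atrazine lineage animals lay above every control in 4 of these 6 stretches, with 10 at chromosome 16, 11 at chromosome 14 at 46 Mb, 15 at chromosome 6 and 13 at chromosome 1, and in 8 of the other 10. At chr16:546001-660000, with 10 called windows, the level was 0.87 to 1.17 RPM in the controls and 1.11 to 2.27 RPM in the atrazine lineage, with medians of 1.05 and 1.46, and 17 of 19 animals lay above every control. The count was similar at chr2:160088001-160831000 (18 of 19 animals, medians of 0.307 and 0.561 RPM). It was 17 of 19 at chr12:49158001-49225000 (0.37 and 0.591 RPM) and at chr15:22445001-22836000 (0.287 and 0.482 RPM). At chr1:183026001-183419000, 16 of 19 animals lay above every control, and at chr3:143652001-143987000 it was 13 of 19. These levels average windows called for a difference in the same animals, so the counts are high by that choice. How high such counts are over all windows tested is not given here. Some of the 5 animals named above were also the highest in part of these stretches. They were M24, M20, M40 and M39 on chromosome 12, M24, M39 and M40 on chromosome 16, and M24, M20 and M40 on chromosome 15. On chromosome 2 the highest animal was M45, followed by M20, M24 and M40. On chromosome 1 it was M55, with M39 among the 5 highest, and on chromosome 3 it was M25, followed by M24. In these 6 stretches the median of the atrazine lineage was 1.39 to 1.83 times that of the controls. In the animals with disease, 31 of the atrazine and 7 of the control lineage, the same ratio of medians was 1.14 to 1.27. Among the stretches described next it was 1.46 at chr20:3144001-3162000, where it was 1.44 without disease, and 1.61 at chr6:51048001-51567000, where it was 3.56. It was 1.74 in the higher windows of chr1:97688001-97912000, where it was 3.12, and 1.15 at chr2:261363001-261381000, where it was 1.87. In the 3 stretches of high coverage, on chromosomes 14, 6 and 1, it was 1.48, 1.43 and 1.37 with disease. Without disease it was 1.33, 1.36 and 1.29 there. At the stretches of the same few animals on chromosome 16, on chromosome 14 at 101 Mb and on chromosome 7 it was 1.17, 1.17 and 1.03 with disease. Without disease it was 1.3, 1.43 and 1.29 at these.

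Some stretches held windows in which animals fell into separate levels. At chr6:51048001-51567000 (7 called windows) controls had 0.0224 to 0.212 RPM and atrazine lineage animals 0.0736 to 0.478 RPM, with medians of 0.0751 and 0.267, and 14 of 19 animals lay above every control. The DMSO-tagged animals among them had 0.215 to 0.478 RPM with a median of 0.434. The best window of this stretch, chr6:51051001-51052000, had 0 to 0.158 RPM in the controls and 0.0303 to 0.558 RPM in the atrazine lineage, and 17 of 19 atrazine animals lay above every control (log2 fold change 1.96 ± 0.31, adjusted p = 0.00837). In the animals with disease its log2 fold change was 0.53 (p = 0.405, edgeR's quasi-likelihood test). At chr1:97688001-97912000, 6 called windows were higher and 4 were lower. The 5 controls M2, M9, M12, M13 and M18 had 0.352 to 0.507 RPM in the higher windows and 0.934 to 1.02 RPM in the lower ones. The controls M8 and M14 had 1.64 and 1.53 RPM in the higher windows and 0.349 and 0.419 RPM in the lower ones, and M6 and M16 lay between, with 1.18 and 0.933 RPM in the higher windows. Of the 19 atrazine lineage animals without disease M24 alone was at the level of the first 5 controls, with 0.495 RPM in the higher and 0.86 RPM in the lower windows. M20, M22, M25, M39, M40, M46 and M55 were near M6 and M16, with 0.836 (M22) to 1.22 RPM (M46) in the higher windows. Among those with disease, M23 (0.419 and 0.88 RPM) and M35 (0.384 and 0.886 RPM) were at the level of the first 5 controls as well. The median of the atrazine lineage animals with disease was 1.16 RPM in the higher windows. By contrast, 3 of the 7 control lineage animals with disease went beyond the levels of M8 and M14. These were M3, M4 and M5, with 1.85, 1.84 and 1.89 RPM in the higher windows and 0.239, 0.347 and 0.289 RPM in the lower ones. The best windows were chr1:97906001-97907000 (log2 fold change 0.99 ± 0.17, adjusted p = 0.0171) and chr1:97691001-97692000 (-0.83 ± 0.14, adjusted p = 0.0171).

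At chr20:3144001-3162000, 12 called windows lay in a DHR of 25 windows, to which the study's annotation gives RT1-N2, RT1-N3 and RT1-S2, nonclassical class I genes of the rat major histocompatibility complex. The complex is one of the most variable regions between rat haplotypes, and its class I copies are similar in sequence, so the split of reads among them is uncertain. Its mean level was 0.189 to 0.415 RPM in the controls and 0.37 to 1.05 RPM in the atrazine lineage, with M22 highest and then M55, M53, M39 and M62. At the best window, chr20:3154001-3155000, the medians were 0.203 and 0.422 RPM (log2 fold change 1.17 ± 0.21, adjusted p = 0.0175), and 13 of 19 atrazine animals lay above every control. The stretch at chr2:261363001-261381000 had 10 called windows with medians of 0.413 and 0.773 RPM, and 6 of 19 animals above every control. The study's annotation gives Fpgt there, an enzyme of fucose salvage. Its best window had a log2 fold change of 1.07 ± 0.19 (adjusted p = 0.0171).

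Outside the stretches 223 windows were called, 156 higher and 67 lower. Among the lower ones the smallest p was found at chr7:40060001-40061000. Of 19 atrazine lineage animals 11 had no read there and the highest had 0.207 RPM. The controls had 0 to 0.853 RPM with a median of 0.257, and M8 had no read. The log2 fold change was -2.18 ± 0.37 (adjusted p = 0.0169). At chr17:62151001-62152000, 7 atrazine lineage animals had no read, the lineage median was 0.0953 RPM and the highest was 0.315 RPM, whereas the 9 controls had 0.172 to 0.548 RPM (log2 fold change -1.70 ± 0.32, adjusted p = 0.0493). At chr15:106498001-106499000 the level was 0.0268 to 0.31 RPM in the atrazine lineage and 0.161 to 0.362 RPM in the controls, with medians of 0.0701 and 0.266 (-1.37 ± 0.26, adjusted p = 0.0518), and 16 of 19 animals were below every control. At chr11:69617001-69618000, 17 of 19 animals were below every control, with medians of 0.294 and 0.546 RPM (-0.79 ± 0.17, adjusted p = 0.169). At chr13:39601001-39602000 it was 15 of 19, with medians of 0.213 and 0.371 RPM (-0.92 ± 0.19, adjusted p = 0.169).

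Among the higher windows outside the stretches, chr19:50419001-50420000 had 0.171 to 0.616 RPM in the controls and 0.214 to 1.82 RPM in the atrazine lineage, with a log2 fold change of 1.32 ± 0.23 (adjusted p = 0.0169). The single window chr14:101449001-101450000, in a stretch described above, went against the pattern of the 5 raised animals. Controls had 0.542 to 0.913 RPM with a median of 0.588, the atrazine lineage had 0.679 to 1.58 RPM with a median of 1.07, and 16 of 19 animals lay above every control (log2 fold change 0.71 ± 0.12, adjusted p = 0.0171). Without the 5 animals its log2 fold change was 0.75.

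The X chromosome had 9 called windows, where its share of windows gives 18, and all 9 were higher in the atrazine lineage, as were 81.8% of all called windows. A sperm carries an X or a Y, and the levels of both were below the autosomal mean in every animal. The smallest p there was at chrX:32910001-32911000, with 0 to 0.179 RPM in the controls and 0.115 to 1.22 RPM in the atrazine lineage, medians of 0.138 and 0.231 RPM, and 14 of 19 animals above every control (log2 fold change 1.61 ± 0.30, adjusted p = 0.0321). The DMSO-tagged animals were among the highest, with a median of 0.56 RPM. In the animals with disease the log2 fold change there was 1.49 (p = 0.00232). At chrX:150624001-150625000 the medians were 0.307 and 0.501 RPM and the highest atrazine animal had 4.07 RPM (log2 fold change 1.46 ± 0.27, adjusted p = 0.0443). That window belongs to a run in which 3 windows were called and in which M20, M24, M39, M40 and M62 were again the highest animals at 11 windows. On the Y chromosome, where its share of windows gives 0.453, and in mitochondrial DNA no window was called.

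The remaining regions of smallest p were of both directions. Close to the high-coverage stretch of chromosome 6, chr6:30647001-30648000 had 2.05 to 3.47 RPM in the controls and 2.38 to 14.3 RPM in the atrazine lineage, with 15 of 19 animals above every control (log2 fold change 0.86 ± 0.16, adjusted p = 0.031), and its log2 fold change was 0.43 without the 5 raised animals. At chr3:144064001-144065000 the medians were 0.58 and 0.971 RPM (0.80 ± 0.14, adjusted p = 0.022), and the 6 DMSO-tagged animals, with 1.1 to 1.53 RPM, all lay above the highest control of 0.991 RPM. Its log2 fold change was 0.61 without them. Lower levels were found at chr14:729001-730000 (medians of 0.831 RPM in the controls and 0.443 RPM in the atrazine lineage, -0.81 ± 0.17), at chr1:31433001-31434000 (0.287 and 0.136 RPM, -1.08 ± 0.23) and at chr1:271975001-271976000 (0.448 and 0.231 RPM, -0.95 ± 0.20). In these 3 the adjusted p was 0.166, 0.215 and 0.221, and 8, 10 and 8 of the 19 animals lay below every control.

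**Figure D3:**
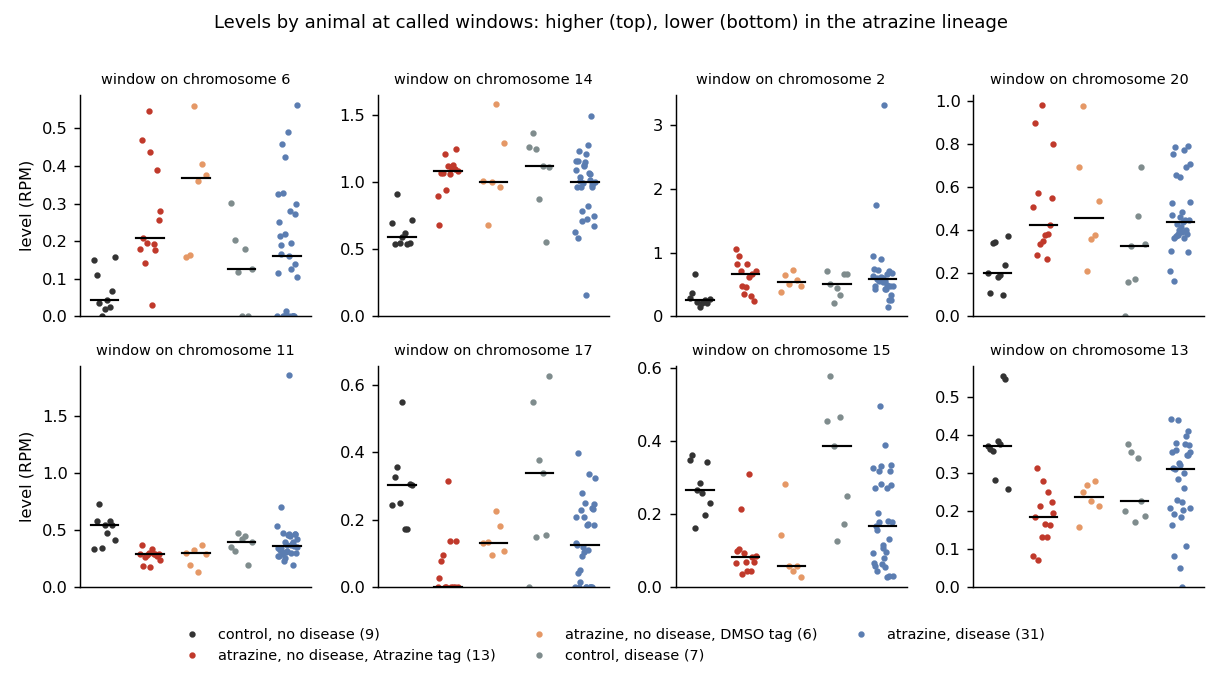
Level in RPM (vertical axes) of single animals at 4 called windows that were higher (top) and 4 that were lower (bottom) in the atrazine lineage, by group (colour), with the group median as a bar. At the chromosome 14 window the controls without disease lay at 0.542 to 0.913 RPM and most atrazine lineage animals above them, while the medians with disease were 1.12 RPM in the control and 1 RPM in the atrazine lineage, and at the chromosome 17 window 7 atrazine lineage animals without disease had no read.

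Few of these regions could be given a gene. An annotation of this genome build was not used here, and 15 of the 256 DHRs overlapped a region to which the study's own tables give a gene, 11 higher and 4 lower. None of the 15 carried a gene of 5 lists (imprinted genes, Hox genes, genes of sperm chromatin and spermatogenesis, steroid hormone genes, and genes of chromatin and DNA methylation), which says little for so few named regions. Apart from RT1 and Fpgt, the higher ones were at Qsox1, which forms disulfide bonds in secreted proteins (1.05 ± 0.22), Slc22a5, the carnitine transporter (1.17 ± 0.25), Zmiz1, a transcriptional coactivator (0.83 ± 0.19), Nkpd1 with Ppp1r37 (1.04 ± 0.23), and a region that holds Ckm, the muscle creatine kinase, Ercc2, a helicase of DNA repair, Klc3, a kinesin light chain found in sperm tails, and Mir343 (0.90 ± 0.21), each as log2 fold change ± SE. They also included RGD1565655 (0.89 ± 0.21), Fibcd1l1 (1.19 ± 0.29) and more of the major histocompatibility complex, the classical class I genes RT1-A1 and RT1-A2 (0.53 ± 0.13) and the RT1-CE genes RT1-CE1, RT1-CE4, RT1-CE5 and RT1-CE7 (0.50), the last falling outside the naming rule. The 4 lower ones were at Rap2a, a small GTPase of the Ras family (-0.91 ± 0.19), Tox, a chromatin protein of T cell development (-0.71 ± 0.15), Fibin (-0.70 ± 0.15) and Arhgef28 (-0.70 ± 0.16). Apart from the regions at Fpgt and RT1-N2, none of these windows had an adjusted p below 0.05, and the next lowest was 0.129 at Qsox1.

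The region of Ckm, Ercc2, Klc3 and Mir343 and that of Nkpd1 and Ppp1r37 lay near each other on chromosome 1, at chr1:80308001-80318000 and chr1:80439001-80444000. At the best window of the former, controls had 0.125 to 0.3 RPM and the atrazine lineage 0.142 to 0.696 RPM, and 13 of 19 animals lay above every control. At that of the latter it was 15 of 19, with medians of 0.197 and 0.315 RPM. At Rap2a, controls had 0.304 to 0.978 RPM with a median of 0.641 and the atrazine lineage 0.135 to 0.827 RPM with a median of 0.252, and 12 of 19 lay below every control. At Tox 3 of 19 lay below every control, with medians of 0.55 and 0.343 RPM.

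A set of 49 of the 391 windows, 35 higher and 14 lower, was called in each of 6 repeats: without the DMSO-tagged animals, without M2, without the 5 raised animals, and with the exact test, DESeq2 and the robust fit. Thinning every library to the smallest total, which is not among the 6, called 390 windows, of which 150 were among the 391, fewer than in any of the 6. The 49 windows lay on 17 chromosomes, and 14 of them were in the stretches. They included the best windows at chr6:51 Mb, at RT1-N2, at Fpgt, Qsox1, Zmiz1, Nkpd1 and Tox, and chr11:69617001-69618000. No window of the run on chromosome 16 at 64 Mb or of the 3 stretches of high coverage was among them, nor was the window on chromosome 7 at 40 Mb. At chr19:27474001-27475000, a window chosen after its values were seen, 18 of 19 atrazine lineage animals (0.245 to 0.644 RPM) lay above every control (0.0683 to 0.246 RPM), with a log2 fold change of 0.86 ± 0.19 (adjusted p = 0.291). In the animals with disease the log2 fold change there was -0.13. The 6 repeats used only animals of this comparison. Some of the 49 windows, both higher and lower ones, had the opposite sign in the animals with disease. The share of the 49 that kept their direction is not given here. Over all windows tested, 56.3% had the same sign there. Being called in all 6 repeats therefore does not mark a window as one that recurred in other animals.

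The called windows were then read in 38 animals that took no part in calling them, the 31 atrazine and 7 control lineage animals with disease. There, 335 of the 391 windows (85.7%) differed in the same direction, against 56.3% of all windows tested. A p below 0.05 was reached by 75 windows (19.2%), all in the same direction, against 3.7% of all windows in either direction. These numbers moved with M28 and M48, atrazine lineage animals with small libraries of 26487836 and 20151792 counts and the TMM factors 0.91 and 0.61, where the median over 66 animals was 1.01. Without them 140 of the 391 windows (35.8%) had p below 0.05, against 4.51% of all windows, and 83.1% had the same direction. The differences were smaller, with a median log2 fold change of 0.38 at the higher windows, where it was 0.79 in the animals that called them, and of -0.16 at the lower ones, where it was -0.73. Outside the stretches the share of the same direction was 78.5%, with median log2 fold changes of 0.26 and -0.13. Of the 222 windows called without M2, 88.7% had the same direction, against 54.7% of all windows tested there, and of those with p below 0.05 42 had the same and 1 the opposite direction. The 31 animals differ from the 7 in disease as well as in lineage, and neighbouring windows are not independent.

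At p below 0.0001, which 0.00343% of all windows reached in the animals with disease, 3 of the 391 windows passed, and 8 passed without M28 and M48, against 0.00888% of all windows. The 3 were chr2:15642001-15643000 (log2 fold change 1.34 ± 0.29 without disease and 3.13 with disease, p = 1.58e-09), chr7:40062001-40063000 (-1.74 ± 0.38 and -2.73, p = 3.21e-06) and chr20:3161001-3162000 in the RT1-N2 region (0.92 ± 0.19 and 1.08, p = 6.20e-05). The first had a median of 0.215 RPM in the control and 0.597 RPM in the atrazine lineage without disease, and of 0.0503 and 0.591 RPM with disease. By contrast, the windows at chr11:69617001-69618000 and chr13:39601001-39602000 had log2 fold changes of 0.08 and 0.08 in the animals with disease, opposite to their sign without disease. At chr14:101449001-101450000 it was -0.12 (p = 0.454), where control lineage animals with disease had a median of 1.12 RPM and atrazine lineage animals of 1 RPM. Chromosome 20 had 17 of the 391 called windows, most of them neighbours in the RT1-N2 region, and 13 of the 75 with p below 0.05.

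**Figure D4:**
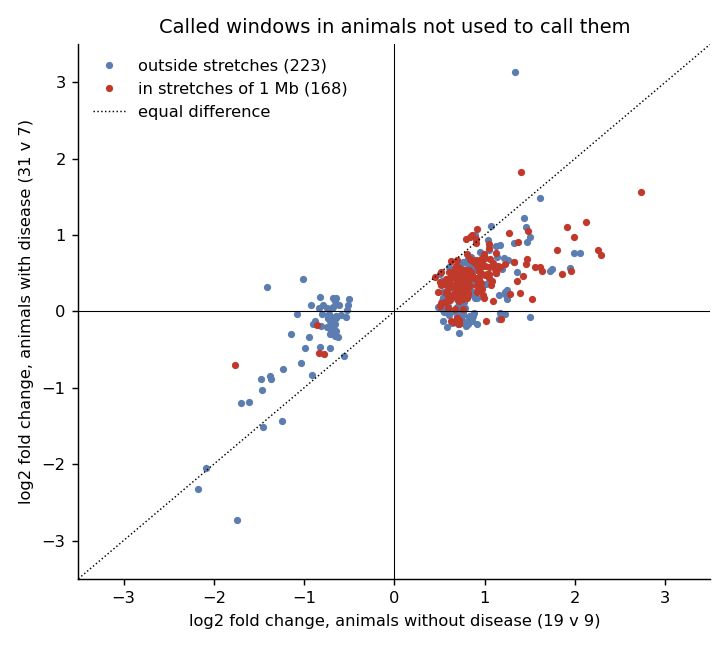
Log2 fold change between lineages at the 391 called windows in the animals without disease that called them (horizontal axis) and in the animals with disease (vertical axis), in stretches (168 windows) and outside (223 windows). Most points lie on the side of the same direction (335 of 391) and nearer to 0 than the line of equal difference.

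The conflicting treatment tag was examined at the 818 windows called without the DMSO-tagged animals, so that the animals with this tag and all animals with disease had no part in the choice. Levels are given as the difference in mean log2 RPM from the 9 controls, as a median over windows. These controls took part in the choice, and the 7 control lineage animals with disease, which did not, were at 0.27 at the 695 higher windows and -0.31 at the 123 lower ones. The 24 Atrazine-tagged animals with disease were at 0.60 and -0.51. The 6 DMSO-tagged animals without disease were at 0.33 and -0.38, and the 7 DMSO-tagged animals with disease at 0.27 and -0.40. By animal, the mean difference at the higher windows was 0.27 to 0.44 in the 6, 0.10 to 0.47 in the 7, 0.31 to 1.40 in the 24, and 0.06 to 0.90 in the control lineage animals with disease, where M17 was the highest and the next had 0.32. The medians over animals at the higher windows were 0.34 in the 6, 0.27 in the 7, 0.50 in the 24 and 0.20 in the control lineage animals with disease. At the lower windows they were -0.47, -0.37, -0.52 and -0.29. By these medians both the 6 and the 7 lay between the control lineage and the Atrazine-tagged animals with disease in both directions. As a median over windows, however, the 7 were level with the control lineage animals with disease at the higher windows (0.27 in both). The ranges overlapped, and whether the tag or the lineage label is right was not tested.

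**Figure D5:**
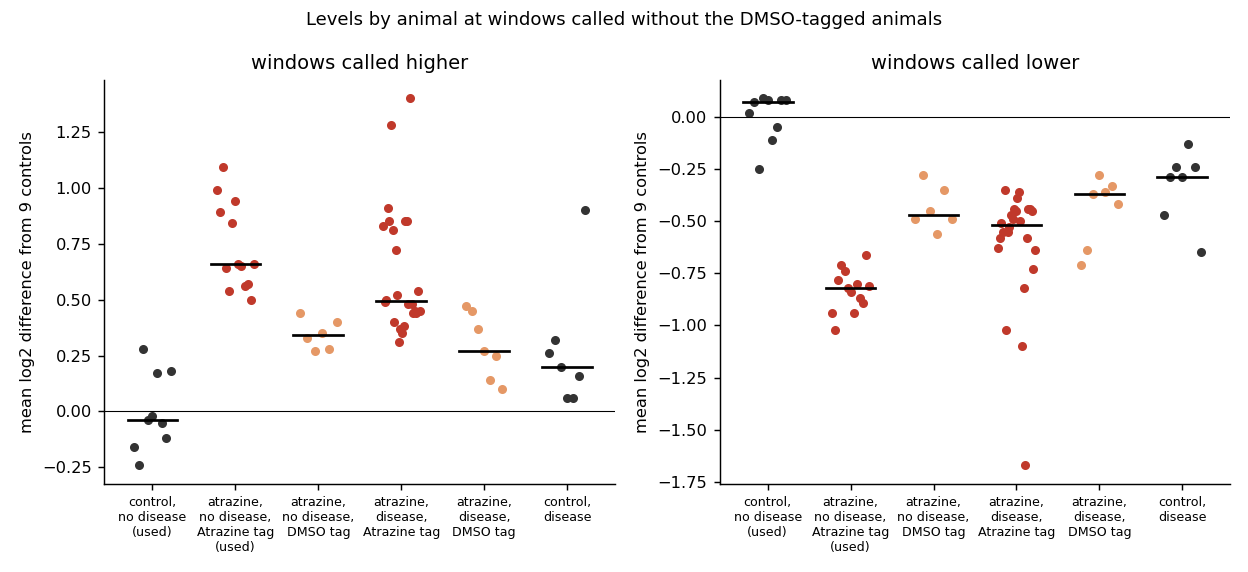
Mean difference in log2 RPM from the 9 controls (vertical axes) for each animal at the 695 windows called higher and the 123 called lower without the DMSO-tagged animals, by group, with the group median as a bar. The DMSO-tagged animals of the atrazine lineage without disease span 0.27 to 0.44 at the higher windows, within the range of the animals with disease, and the 13 animals marked as used were high there by the choice of windows.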

How the data were processed

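Sperm chromatin of 67 rats was immunoprecipitated with an antibody to histone H3 and sequenced with paired ends, counts of 66 were analysed here, and 28 rats enter this comparison. The authors trimmed reads with Trimmomatic after FastQC, aligned them to Rnor_6.0 with Bowtie2 and SAMtools, and deposited raw counts per 1000 bp window from MEDIPS for each animal, without normalization. Versions, read extension and the treatment of duplicates are not given in the sources used here. The highest window count was nearly the same in libraries of any depth, and its effect on the best covered windows was not tested. The deposited tables also hold 66 columns of normalized values, along with the authors' p-values and fold changes, which were not used. Separate disease tables were not used either.

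Windows with a mean of 10 or more reads over the 28 animals were tested with edgeR 4.0.16 (quasi-likelihood test, TMM scaling, two-sided, Benjamini-Hochberg adjustment over all windows) in R 4.3.3. TMM factors and the dispersion trend came from a random sample of 200000 windows. Windows with p below 0.0001 were called, and neighbours with p below 0.1 within 1000 bp were joined, as in the study's methods. RPM are counts per 1000000 of the library total times its TMM factor. Principal components used log2(RPM + 0.05). The SE is the log2 fold change divided by the square root of the F statistic. On simulated counts for 100000 windows of this comparison, 20 of 67 windows changed 1.5-fold, 60 of 67 changed 2-fold and 66 of 66 changed 4-fold were called, and 5 of 99800 unchanged ones. These counts were negative binomial with the fitted means, library sizes and dispersion trend. They held no animals raised together and no limit on the highest counts, so the rates in the real data may differ.

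Groups follow the lineage and disease labels. The labels mark neither batches nor litters, so neither was modelled, and p-values are too small if animals of a lineage share a litter. Library totals ran from 22211333 to 239635003 counts, and levels from shallow libraries are less precise. Gene names come from the annotation column of the study's region tables, in which 1640 symbols matched RefSeq (GRCr8) by symbol and chromosome and 618 did not, and no coordinate was converted. Named windows are the 12 DHRs of smallest p in each direction, at most 2 per Mb, the 10 in each direction with a gene, and stretches of 1 Mb with at least 5 called windows. The comparison and the gene lists were chosen with earlier results of these data known. Alternatives were edgeR's exact test, DESeq2 1.42.0, other scalings and filters, a robust fit, thinned libraries, and the omission of each animal, of M2 and of the DMSO-tagged animals. Omitting M2 with M68 or with the DMSO-tagged animals was chosen after seeing the data. So were omitting M20, M24, M39, M40 and M62, and omitting M28 and M48 from the animals with disease. Reading only windows outside the stretches or called without M2 in the animals with disease was also chosen then.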

Additional observations from a re-analysis of the deposited data

Results flagged for a closer look

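Of 55 sets of values from 4 to 10 animals, 7 had an animal far from the others by Dixon's criterion, where chance gives about 1 in 20. They were the library total of M2 among the controls (163000000 counts, next 91300000) and that of M68 among the DMSO-tagged animals (240000000, next 68400000). In the controls, M2 was also low in the stretches on chromosome 14 at 46 Mb (2.88 RPM, next 4.18) and on chromosome 6 at 31 Mb (3.17 RPM, next 4.29). M8 was high at chr14:101449001-101450000 (0.913 RPM, next 0.718) and at chr2:261365001-261366000 at Fpgt (0.662 RPM, next 0.362), and M12 at chr17:62151001-62152000 (0.548 RPM, next 0.358). No cause was tested for any of these.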

How the results depend on the processing

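None of the named windows turned its direction under an alternative in which it was tested, which was all 34 except with a minimum mean of 20 reads (24), without the DMSO-tagged animals (31), without M2 (30), without M2 and M68 (29) and without the 5 raised animals (33). The 391 windows became 818 without the DMSO-tagged animals, 657 with the exact test, 239 with the robust fit, 222 without M2 and 252 without M2 and M68. The 256 DHRs became 595, 510, 148 and 157 without the DMSO-tagged animals, with the exact test, without M2 and without M2 and M68, and 391 if each window counts alone. The 35 windows with adjusted p below 0.05 became 76 without the DMSO-tagged animals, 75 with the exact test, 1 with DESeq2, 117 with no filter, 0 with the robust fit of edgeR (119671 windows had an unadjusted p below 0.05), 76 with libraries thinned to the smallest, 2 without M2, 16 without M2 and M68, and 12 without the 5 raised animals. The share of called windows that were higher, 81.8%, was 77.6% with the exact test, 72% with DESeq2, 65.3% with no filter, 77.4% with the robust fit, 75.4% thinned, 77% without M2 and 73.5% without the 5 raised animals. With M2 left out of the 13 against 9 animals as well, 818 windows became 389, and the 76 with adjusted p below 0.05 became 21. In the animals with disease, the share of the same direction, 85.7%, was 89.2% for windows called without the DMSO-tagged animals and 78.5% outside the stretches. Leaving out each of the 28 animals in turn, with scaling and trend kept, gave 236 (without M2) to 579 (without M8) windows, 156 (M2) to 431 (M13) DHRs, with 398 without M8, 2 (M2, M9) to 109 (M22) adjusted p below 0.05, and shares higher of 75.8% (M2) to 89.3% (M18). That count of adjusted p also fell to 5 without M12, to 8 without M16, to 18 without M14 or M18, to 19 without M39 and to 22 without M6, M13, M40 or M62, was 23 without M24 and rose to 85 without M68. Scaling by size factors or totals kept all 34 named windows called, DESeq2 lost 11, the robust fit 13 and thinning 11, and 58 of 256 DHRs were called whichever animal was left out. Apart from fewer animals or windows where these were removed, the cause was not tested. No paired analysis was possible because every animal has its own number. Windows near the minimum mean of 10 reads have few reads in shallow libraries, so small differences there may be missed, which was not tested.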
